A study of Mus musculus with 35 samples.

Results

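SRSF1 and SRSF3 are SR proteins, RNA-binding splicing factors that carry a domain rich in arginine and serine. They were compared here by the letters, sites and transcripts to which each was cross-linked in mouse P19 cells, an embryonal carcinoma line. The comparison rests on 7 of the 31 libraries that have a file of their own, namely all 4 iCLIP libraries of SRSF1 (replicates 1 to 4) and all 3 of SRSF3 (replicates 1 to 3), taken by their labels. The P19 cells carried a bacterial artificial chromosome, from which the SR protein was made with a GFP tag: one stable clonal line makes SRSF1-GFP and the other SRSF3-GFP, each beside the untagged protein of the cells. The cells of both lines were growing cells irradiated with UV light, RNA was cut with RNase, and the tagged protein was pulled down with an antibody to GFP. Background values come from the 24 libraries of SRSF2, SRSF4, SRSF5, SRSF6, SRSF7 and NXF1, the mRNA export receptor, and from 1 pooled file of a GFP-NLS control, GFP with a nuclear localisation signal and no SR protein.

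In iCLIP, UV light joins a protein to the RNA it touches, and copying of that RNA into cDNA halts beside the joined base, so that the end of each cDNA marks one nucleotide. SR proteins bind exons, recruit the spliceosome to nearby splice sites and travel with the mRNA. SRSF1 is known to prefer purine-rich RNA with GGA or GAAGA, and SRSF3 is known to bind short pyrimidine motifs of the form CNTC, where N is any base. All sequences are written as DNA, with T for U. The sample labels name only the proteins, and the contrast of purine and pyrimidine motifs was examined with the bases around the listed positions.

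A listed tag is a cDNA at a position that the authors kept because its surroundings held more cDNAs than chance, and 0 means that no such position was listed. The SRSF1 libraries held 703367, 246270, 86924 and 14900 listed tags (replicates 1 to 4) at 379449, 99900, 27999 and 4405 positions. The SRSF3 libraries held 409282, 2152709 and 1949249 tags (replicates 1 to 3) at 231786, 1365930 and 1208323 positions, and the pooled control held 21880 tags. Tags below are given per 1000000 listed tags of a library (CPM), so that 1 tag in SRSF1 replicate 4 is already 67.1 CPM. SRSF1 replicate 4 stood apart, with Spearman correlations across regions of 0.09 to 0.38 with the other SRSF1 libraries. The other SRSF1 libraries correlated at 0.46 to 0.76 among themselves, the SRSF3 libraries at 0.83 to 0.95, and SRSF1 with SRSF3 at −0.11 to 0.27, across regions that are not independent. All 7 libraries were run in the same year, SRSF1 on 2 lanes and SRSF3 on 2 others, so that lane, cell line and protein cannot be told apart. Among the background libraries, 2 of SRSF2 carry the name of SRSF1 in their headers; their purine shares were 48.6% each, inside the range of the other proteins given below, and no range moved without them. The study calls its libraries biological replicates, and the labels give only replicate numbers, so p-values measure the spread between these libraries, whatever its source. Of 8 markers of pluripotent P19 cells 6 had tags with SRSF1 and 7 with SRSF3, with sums of 0 to 1874 CPM and 657 to 843 CPM. Esrrb was at 0 with both proteins and Dppa5a with SRSF1, while the muscle markers Myod1 and Myog were at 0 in all 7 libraries. Other lineages were not at 0. Of 3 annotated neuron markers 2 had tags with each protein, with sums of 0 to 18.5 CPM with SRSF1 and 17.1 to 40.02 CPM with SRSF3. Of 4 endoderm and mesoderm markers 2 had tags with SRSF1 and 3 with SRSF3, with sums of 0 to 23.01 CPM and 0 to 11.6 CPM.

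Sites that set the proteins apart inside a transcript are shown first. Within genes, each region (listed clusters merged within 30 nt) was compared with the other regions of the same gene, so that a different amount of the transcript does not by itself change the value. Each window below holds 30 nt of the mouse genome (build mm9, given as the RNA strand) around the position with most tags of SRSF1, in the 8 regions with the smallest p among those relatively higher with SRSF1. The capitals mark GGA.
Ubap2l, coding, chr3:89842860-89842889, minus strand: atggtGGAcaaactgaatctaatgaagaag
Mga, coding, chr2:119773819-119773848, plus strand: agGGAgcagacattttcagggtcatttact
Deaf1, other exon, chr7:148510489-148510518, minus strand: caGGAGGAagagtttctggGGAaGGAtgtc
Adcy1, coding, chr11:7061857-7061886, plus strand: catGGAcaaGGActtctataaGGAcctGGA
Srsf3, 5′ UTR, chr17:29169626-29169655, plus strand: gtgacgccgcgagaccgagaatctgtaGGA
Sf3a1, coding, chr11:4074071-4074100, plus strand: gagctcGGAtcctcattcaGGAgcgctacg
Rbbp6, 3′ UTR, chr7:130145594-130145623, plus strand: ccaagaagaacaaagacaaGGAgaaGGAga
Ankrd17, coding, chr5:90682668-90682697, minus strand: acaacatgaGGAtttccagctgcagtgacg
All 8 windows hold GGA, and those of Adcy1 and Deaf1 hold 4 each. Without the filter on low values the calls of Mga (adjusted p = 0.361), Rbbp6 (0.345) and Ankrd17 (0.661) ended. At Ankrd17 the relative log2 change was then 1.002 in place of 7.18, and its region held 19.9, 40.6, 0 and 0 CPM with SRSF1 and 0, 19.5 and 10.3 with SRSF3, which overlap.

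The same window was taken around the position with most tags of SRSF3 in the 8 regions with the smallest p among those relatively lower with SRSF1. Here the capitals mark CNTC.
Bptf, coding, chr11:106916130-106916159, minus strand: tcaactcaaactctttCATCaggacagaca
Pkm2, intron, chr9:59504864-59504893, plus strand: attcagCCTCcgcgttCATCCTCctttcag
Supt6h, coding, chr11:78021662-78021691, minus strand: ccaagctactcctatactaccccgagccag
Bptf, coding, chr11:106923094-106923123, minus strand: ctggggatcattcCATCgactacaggtcca
Myh10, 3′ UTR, chr11:68629425-68629454, plus strand: gcCCTCttgcaaattcagccactgctttga
Srcap, coding, chr7:134678353-134678382, plus strand: aaagtctgcaatCATCcaaatctatttgac
Nop2, coding, chr6:125091422-125091451, plus strand: gttccacccggcgCTTCtacCCTCacactc
Dst, 3′ UTR, chr1:34364852-34364881, plus strand: ttttttatttttattttttgcgatgctcta
CNTC stands in 6 of these 8 windows, and the windows of Supt6h and Dst hold none. Without the filter the call of the Dst region ended (adjusted p = 0.0653). The same windows of all tested regions held GGA in 39.97% and CNTC in 54.3% of 3568 regions (transcript strand only, overlapping matches counted). Regions without a listed position of the protein to centre on were left out. Of 440 regions relatively higher with SRSF1 that held an SRSF1 position, 67.5% held GGA and 25% held CNTC. Of 397 relatively lower, 18.4% held GGA and 77.1% held CNTC. Windows of higher regions were centred on SRSF1 positions and windows of lower regions on SRSF3 positions, and those of all tested regions mix both. The shares therefore cannot separate the regions from the positions chosen within them. Over whole regions, without that choice, GGA stood 3.02 times per 100 nt in the higher and 1.29 in the lower, against 1.902 in all. CNTC stood at 1.099 and 2.53, against 1.82.

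The next 4 windows, from the test of single regions (each region on its own, not against its gene), show sites with tags almost entirely from one protein of the pair. The first pair was higher with SRSF1, with GGA in capitals, and the second pair lower, with CNTC in capitals.
Ranbp1, 5′ UTR, chr16:18248752-18248781, minus strand: cGGAgGGAagagcGGAcgggcgGGAgcgcc
Hnrpdl, coding, chr5:100465596-100465625, minus strand: aaGGAtatGGAaattataatagtgcctatg
Polr2a, coding, chr11:69547981-69548010, minus strand: acctactctcccaCTTCtcctggctactca
Polr2a, coding, chr11:69548950-69548979, minus strand: tcccctaCTTCacCTTCctactccccaacc
Both Polr2a windows lie in the coding sequence for the largest subunit of RNA polymerase II. The 4 windows are examples from the named regions of that test. Among the named regions lower with SRSF1, the window of Tubb5 held 0 CNTC and 50% purines, and the others all held CNTC.

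Listed positions of every SRSF1 library lay in RNA with more purines than those of any SRSF3 library. In the 41 nt around each listed position (20 nt on either side, each position once, mitochondrial positions left out), A and G made up 53.0%, 52.7%, 52.5% and 55.6% of bases with SRSF1 and 42.7%, 43.0% and 42.8% with SRSF3. The groups did not overlap, and the difference was 10.6 percentage points (53.4 ± 1.42% against 42.8 ± 0.17%, SD, n = 4 and 3; exact permutation test, two-sided, p = 0.0571). With 4 against 3 libraries there are 35 splits and 0.0571 is the smallest two-sided p that they allow, so none of the library comparisons can pass a threshold of 0.05. The 24 libraries of the other proteins lay between, at 47.2% to 52.2%, and the control at 50.9%.

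Both proteins departed from the RNA around their sites, in opposite directions. In flanks 80 to 120 nt away the purine share was 50.7%, 50.7%, 50.7% and 51.0% with SRSF1 and 47.9%, 47.3% and 47.4% with SRSF3. Window minus flank was 2.31, 2.03, 1.78 and 4.60 points with SRSF1, against −5.20, −4.33 and −4.60 points with SRSF3. The other proteins ranged over −2.44 to 1.18 points, so that all SRSF1 libraries lay above them and all SRSF3 libraries below. The departures of SRSF1 replicates 1 to 3 were smaller in size than those of all SRSF3 libraries, while that of SRSF1 replicate 4 lay among them.

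**Figure D1:**
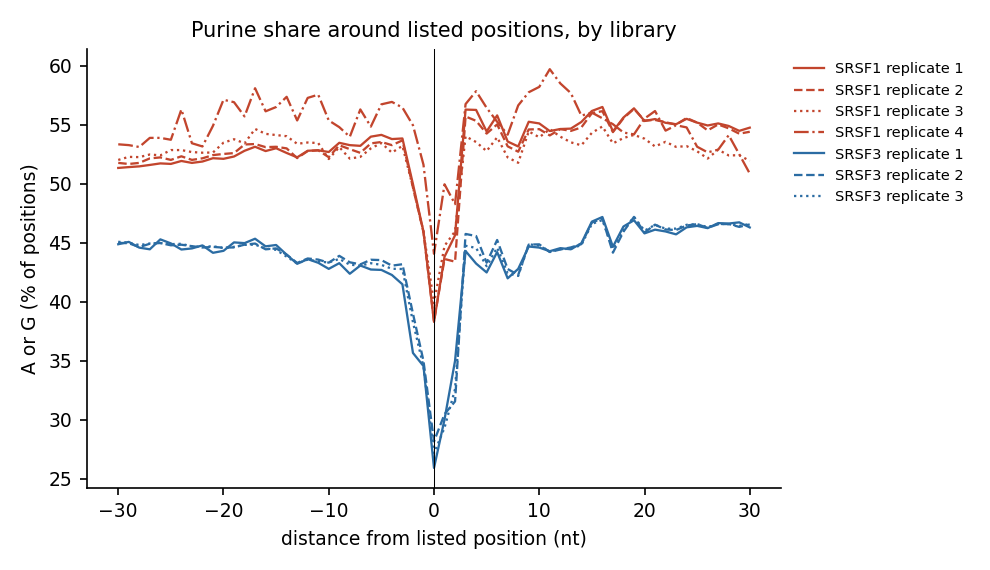
Share of A and G (percent) at each nucleotide around the listed position, averaged over the positions of each library; lines are the 4 SRSF1 and 3 SRSF3 libraries. The mean SRSF1 and SRSF3 lines are farthest apart 1 nt after the listed position (45.5% against 29.9%), and still differ at 30 nt (53.0% against 46.5%).

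Position by position, the gap was widest 1 nt after the listed nucleotide, where the mean share was 45.5% with SRSF1 and 29.9% with SRSF3. At the listed nucleotide itself both were low, at 40.1% and 27.1%, with T there in 42.0%, 42.4%, 39.8% and 37.2% of SRSF1 positions and 50.6%, 48.0% and 50.1% of SRSF3 positions. UV light favours uridine, and the part of this preference in the difference was not tested. Leaving out the 5 central nucleotides left a difference of 10.2 points. The difference was 9.75 points over coding sequence alone, 5.35 in 3′ UTRs and 12.6 in introns, without overlap in any of them. In coding sequence the shares were 55.1%, 55.6%, 55.6% and 54.7% with SRSF1 and 44.1%, 46.2% and 46.2% with SRSF3. In the 442 genes with tags in all 7 libraries the difference was 10.7 points, and among the 2000 positions with most tags in each library 8.67 points.

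By single base, SRSF1 windows held more G (26.2%, 26.2%, 27.7% and 30.3%, against 19.7%, 19.4% and 19.5% with SRSF3) and slightly more A. A differed by 2.55 points and G by 8.06, so that G carried most of the purine difference. On the pyrimidine side C differed by −5.44 points and T by −5.17, and none of the 4 bases overlapped between the proteins (exact permutation p = 0.0571 each).

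The core motif of each protein was denser in its own windows. GGA stood 2.79, 2.77, 2.86 and 3.57 times per 100 nt with SRSF1, against 1.22, 1.26 and 1.27 with SRSF3. The other proteins had 1.68 to 2.44 and the control 2.22, so that SRSF1 lay above all of them and SRSF3 below all. CNTC stood 1.70, 1.67, 1.54 and 1.1 times per 100 nt with SRSF1, against 3.65, 3.27 and 3.21 with SRSF3, where the other proteins had 1.24 to 2.23. The differences were 1.75 for GGA and −1.87 for CNTC (exact permutation p = 0.0571 each, the smallest possible).

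Relative to the flanks the cores were not mirror images of each other. GGA exceeded its flanks by 0.84, 0.86, 1.05 and 1.75 per 100 nt with SRSF1 and differed from them by −0.35, −0.29 and −0.30 with SRSF3. CNTC differed from its flanks by 0.22, 0.19, 0.10 and −0.41 per 100 nt with SRSF1 and by 1.71, 1.31 and 1.29 with SRSF3. CNTC was therefore not depleted at SRSF1 sites except in replicate 4, while GGA was depleted at SRSF3 sites in all 3 libraries.

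All 4 forms of CNTC were lower with SRSF1. CTTC was the most frequent, at 0.60, 0.59, 0.57 and 0.41 per 100 nt with SRSF1 and 1.29, 1.18 and 1.16 with SRSF3. CCTC stood at 0.45, 0.45, 0.43 and 0.30 with SRSF1, against 1.06, 0.93 and 0.92 with SRSF3, and CATC was close to it, at 0.49, 0.46, 0.35 and 0.30, against 1.004, 0.93 and 0.90. CGTC, which holds the rare CG step, was the scarcest, at 0.16, 0.17, 0.20 and 0.09 with SRSF1, against 0.30, 0.23 and 0.23 with SRSF3. The libraries of the proteins did not overlap for any of the 4.

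GAAGA, the purine enhancer word, was less specific to SRSF1 than GGA. It stood 0.48, 0.46, 0.32 and 0.26 times per 100 nt with SRSF1, against 0.19, 0.19 and 0.18 with SRSF3, but the other proteins reached 0.19 to 0.59. Among the 2000 positions with most tags the difference was 0.06 and the libraries overlapped (exact permutation p = 0.229), whereas over coding sequence it was 0.43 with no overlap.

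**Figure D2:**
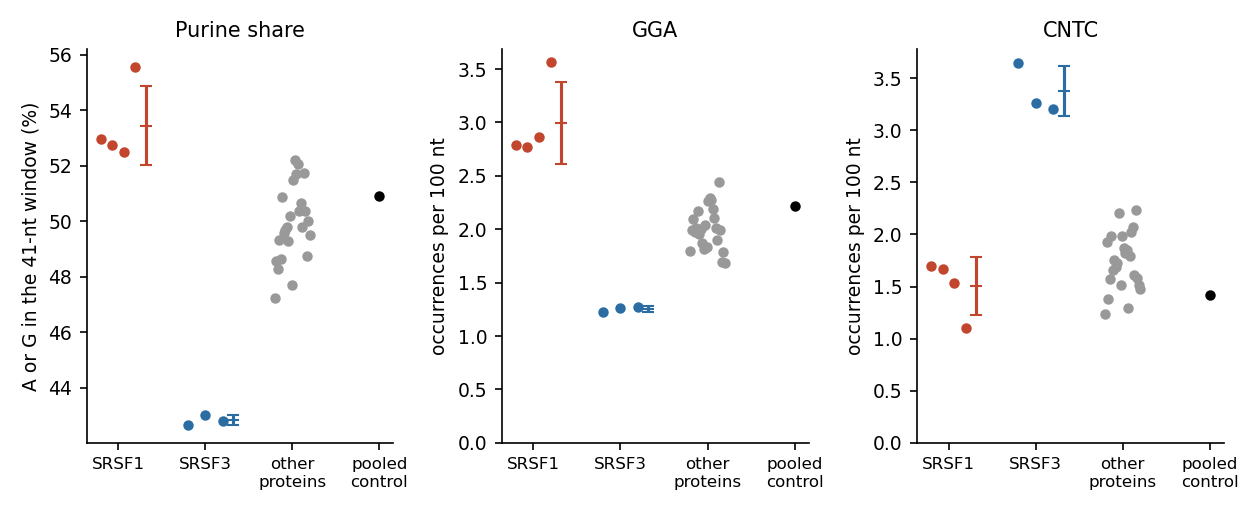
Share of A and G (percent) and occurrences per 100 nt of GGA and of CNTC around listed positions, 1 point a library, for SRSF1, SRSF3, the other proteins and the pooled control, with the mean and SD of SRSF1 and SRSF3 as bars. SRSF1 libraries lie at 2.77 to 3.57 for GGA and SRSF3 libraries at 1.22 to 1.27, while for CNTC SRSF1 libraries lie at 1.1 to 1.70 and SRSF3 libraries at 3.21 to 3.65.

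Every pentamer was then compared without choosing a motif, as log2 of window over flank frequency (limma, 1 fit over 31 libraries, Benjamini-Hochberg). With SRSF1 209 pentamers were higher (20.4% of those tested) and 252 lower (24.6%). Of the 48 pentamers with GGA 44 were higher and 0 lower (median difference 0.67), and of the 32 with CNTC 29 were lower and 0 higher (median −0.80), beside a median of −0.06 over all pentamers. Since GGA and CNTC were already known here, these counts describe the same windows again. In all 461 were called (45% of those tested), and 540 differed at an unadjusted p under 0.05.

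Purine number alone ordered the pentamers. None of the 32 pentamers without a purine was higher with SRSF1 and 29 were lower, and among 160 with 1 purine 131 were lower. With 2 purines 14 of 320 were higher and 79 lower, with 3 purines 89 were higher and 12 lower, and with 4 purines 81 of 160 were higher and 1 lower. Of the 32 pentamers made of purines only, 25 were higher and 0 lower.

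The largest differences towards SRSF1 were for AGGAG, then GGAGG, then AGGAT and then GAGGA, all built on GGA. AGGAG had log2 enrichments over its flanks of 0.77, 0.97, 1.44 and 2.64 with SRSF1, against −0.46, −0.45 and −0.45 with SRSF3 (difference 1.91 ± 0.37 SE, limma adjusted p = 2.5e-04). GAGGA had 0.93, 1.0, 1.15 and 1.96 with SRSF1, against −0.46, −0.38 and −0.37 with SRSF3 (1.67 ± 0.19, adjusted p = 3.4e-07). Both were highest in SRSF1 replicate 4, and both kept their call without it. GTAGG and GGTAG, at 1.48 and 1.45, were the members of the top 10 without GGA that lost their call when replicate 4 was left out (0.97 each, adjusted p = 0.127 and 0.12). GTAGG also lost it without SRSF3 replicate 1, 2 or 3 (0.0517, 0.0592 and 0.054), and GGTAG without SRSF1 replicate 3 (0.0527) or SRSF3 replicate 2 or 3 (0.0627 and 0.0594).

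The largest differences towards SRSF3 were CGTCA (−1.25), TCGTC (−1.11), ATCGT (−1.08) and TCCTC (−1.04). CGTCA had 0.44, 0.29, −0.25 and −1.72 with SRSF1 and 0.96, 0.94 and 0.92 with SRSF3, so that its size owed much to SRSF1 replicate 4. TCCTC was more even, with −0.11, −0.13, −0.18 and −0.77 with SRSF1 and 0.89, 0.66 and 0.68 with SRSF3 (SE 0.15, adjusted p = 6.3e-06). TCATC was enriched over its flanks with both proteins, by 0.68, 0.60, 0.07 and 0.23 with SRSF1 and by 1.55, 1.30 and 1.34 with SRSF3. ATCGT lost its call without SRSF1 replicate 4 (−0.58, adjusted p = 0.0684), and over coding sequence alone its sign turned (0.32, adjusted p = 0.501). Over coding sequence alone the calls of TCGTC (−0.99, adjusted p = 0.0754) and TCATC (−0.48, adjusted p = 0.257) also ended. In a fit of the 7 libraries alone 5 of the 20 named pentamers lost their call (adjusted p = 0.0785 to 0.13), CGTCA (0.0802) among them. The other pentamers in this top 10 lay between −0.99 and −0.98 on the log2 scale. In all 20 named pentamers the libraries did not overlap, as in 55.4% of all pentamers tested.

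The 3′ UTRs and last exons held a smaller share of tags with SRSF1. Of tags off the mitochondrial genome, 3′ UTRs held 7.34%, 5.58%, 2.97% and 1.61% with SRSF1 and 10.2%, 11.1% and 12.8% with SRSF3. Last exons held 20.8%, 21.6%, 20.8% and 15.5% of the exonic tags of coding transcripts with SRSF1, against 27.0%, 28.0% and 29.6%. Both were lower with SRSF1 without overlap (exact permutation p = 0.0571, adjusted p = 0.143 over 10 classes).

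Exons of noncoding genes held 11.9%, 17.3%, 15.1% and 11.8% of tags with SRSF1, above the 8.49%, 4.14% and 4.49% with SRSF3 (exact permutation p = 0.0571, adjusted p = 0.143). Among the 2000 positions with most tags this order was turned round, with a difference of −10.9 points. Coding sequence held 37.99%, 22.7%, 8.59% and 8.0% with SRSF1 and 29.8%, 37.8% and 36.4% with SRSF3, which overlapped. Intergenic positions held 26.2%, 38.1%, 55.9% and 53.6% with SRSF1 and 27.9%, 14.5% and 14.4% with SRSF3, also overlapping, beside 63.3% in the control. The 2 SRSF1 libraries with fewest tags had the largest intergenic and the smallest coding shares, and the part of depth in these shares was not tested. Among tags on mRNA exons alone, the 3′ UTR shares overlapped (exact permutation p = 0.114). Of the 3′ UTR tags, 11.5%, 12.02%, 10.8% and 7.51% lay in the last 100 nt before the 3′ end with SRSF1 and 10.3%, 8.01% and 8.39% with SRSF3, with overlap.

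**Figure D3:**
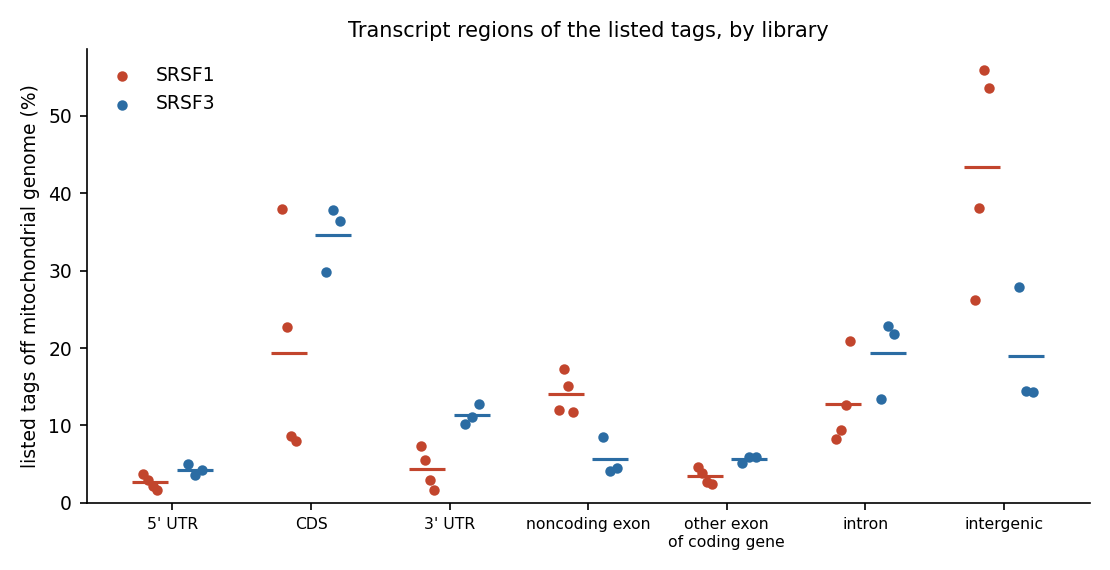
Percent of listed tags off the mitochondrial genome in each part of transcripts, 1 point a library, SRSF1 left of SRSF3 in each class, with lines at the means. In 3′ UTRs SRSF1 libraries lie at 1.61% to 7.34% and SRSF3 libraries at 10.2% to 12.8%, while in coding sequence they overlap.

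Single regions were called in both directions. Of 6649 regions tested, 1385 were higher with SRSF1 (20.8%) and 1257 lower (18.9%) at an adjusted p under 0.05 (limma voom), 39.7% in either direction. SRSF1 and SRSF3 libraries did not overlap in 267 of the higher and 1217 of the lower regions, against 31.4% of all regions tested. With limma trend in place of voom 1252 regions were higher and 908 lower. Because a constant of 0.5 tag weighs more in a small library, limma trend was also run with 1 offset in CPM for all libraries, which was chosen after seeing the data. It called 345 regions higher and 1200 lower, so that both counts moved with the offset. Without SRSF3 replicate 1, 2 or 3 the calls were 1724, 1582 and 1693.

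Regions called in each direction differed in their letters over their whole length. The median purine share was 56.9% in regions higher with SRSF1 and 44.1% in those lower, beside 50.3% in all regions tested. GGA stood 3.04 times per 100 nt in the higher and 1.29 in the lower, against 1.88 in all, and CNTC 1.04 and 2.77, against 1.82. The regions came from clusters of all proteins, and their letters were not used to call them.

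The 5′ UTR of Ranbp1, a partner of the nuclear transport GTPase Ran, was among the named sites higher with SRSF1. It held 91.0, 85.3, 34.5 and 336 CPM with SRSF1 and 7.33, 0 and 0 with SRSF3 (log2 change 7.65 ± 0.99, adjusted p = 1.1e-05), and all 4 SRSF1 libraries lay above all of SRSF3. A coding region of Hnrpdl, a relative of the hnRNP D protein, held 185, 129.9, 138 and 0 CPM with SRSF1, against 0, 0 and 1.03 (7.69 ± 1.05, adjusted p = 1.2e-05). Its 0 in SRSF1 replicate 4 makes the groups overlap. Libraries of the other proteins reached 46.2 CPM at the Ranbp1 region and 80.5 CPM at the Hnrpdl region, so neither site was limited to SRSF1. Coding regions of Hnrnpd, Dst, Supt6h and Mllt4 had the same shape, with 28.4 to 131 CPM in SRSF1 replicates 1 to 3, 0 in replicate 4 and at most 3.59 with SRSF3. Gm10060, a pseudogene, and an intron of Coro2b, a coronin of the actin skeleton, were higher in all 4 SRSF1 libraries, at 122 to 201 and 201 to 529 CPM, against 0 to 8.21 and 5.64 to 34.2 with SRSF3. Pseudogene reads may belong to near-identical copies, and the control held 137 CPM on Gm10060. Copies of the Coro2b intron sequence were not searched for. Libraries of the other proteins reached 423 CPM at the Gm10060 region and 652 CPM at the Coro2b region.

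Polr2a carried 2 coding sites of SRSF3. One region held 1.42, 0, 0 and 0 CPM with SRSF1, against 491, 320.1 and 251 with SRSF3, and the next held 0 in all 4 SRSF1 libraries, against 252, 179.8 and 137 (adjusted p = 1.1e-05 each). The 24 other libraries reached at most 24.7 and 18.8 CPM there, so no other protein came near SRSF3 at these sites. At the 5′ end of the same transcript SRSF1 was listed, with 41.2, 89.3, 57.5 and 0 CPM, against 166, 107 and 107 with SRSF3. That end region was higher with SRSF1 relative to the other Polr2a regions by 5.72 ± 0.89 on the log2 scale (adjusted p = 9.4e-07), and both coding regions were relatively lower.

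Other regions with 0 in all SRSF1 libraries were a coding region of Tubb5, a beta-tubulin (618, 443 and 495 CPM with SRSF3), and introns of Phc1, a Polycomb protein (339.6, 246 and 260.1), and of Pkm2, pyruvate kinase (511, 233 and 200). A coding region of Tmem131 (100.2, 84.1 and 64.6) and the 3′ UTR of Hyou1, an endoplasmic reticulum chaperone (129, 109 and 105), were also at 0 in every SRSF1 library. An intron of Tsga14 held 5.69, 0, 0 and 0 CPM with SRSF1, against 337, 268 and 289. A fitted fold against a group at 0 is no bound, and the adjusted p of these 6 lay between 1.1e-05 and 1.4e-05.

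Within genes the contrast held between sites of the same transcript. Of 3634 regions in 843 genes, 443 were relatively higher with SRSF1 (12.2%) and 397 relatively lower (10.9%) in limma's diffSplice. A relatively higher region need not hold SRSF1 tags, and 3 of the 443 held 0 in every SRSF1 library. SRSF1 replicate 4 was at 0 in 409 of the relatively higher, 392 of the relatively lower and 3504 of all regions tested. Library CPM, not taken relative to the gene, did not overlap in 31 of the relatively higher and 320 of the relatively lower regions. Separation in either direction was counted, and it held in 33.1% of all of them. The 31 include the end region of Polr2a, where all SRSF3 libraries lay above all of SRSF1. In 268 genes both kinds occurred, and the purine share was larger in the relatively higher regions in 254 of them and smaller in 14, with a median difference of 12.9 points (quartiles 7.25 and 17.5). With the same offset in CPM the counts were 184 and 212. Without SRSF1 replicate 1 the calls were 537, and without SRSF3 replicate 1, 2 or 3 they were 481, 493 and 472.

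Above 35% purines, the share of regions called relatively higher went up with purine content. Of 65 regions with less than 35% purines, 3.08% were relatively higher with SRSF1 and 27.7% lower. Of 213 regions with 35% to 40% purines, 0.47% were relatively higher with SRSF1 and 31.9% lower. Of 212 regions with 60% to 65%, 36.8% were higher and 0.47% lower, and of 128 above that, 43.8% and 0.78%. Coding sequence made up 76.5% of the relatively higher regions and 47.6% of the lower, and 61.1% of all. The 3′ UTR made up 4.06% of the higher and 18.9% of the lower, against 11.4% of all, and introns 7.67% and 16.4%, against 10.1%.

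**Figure D4:**
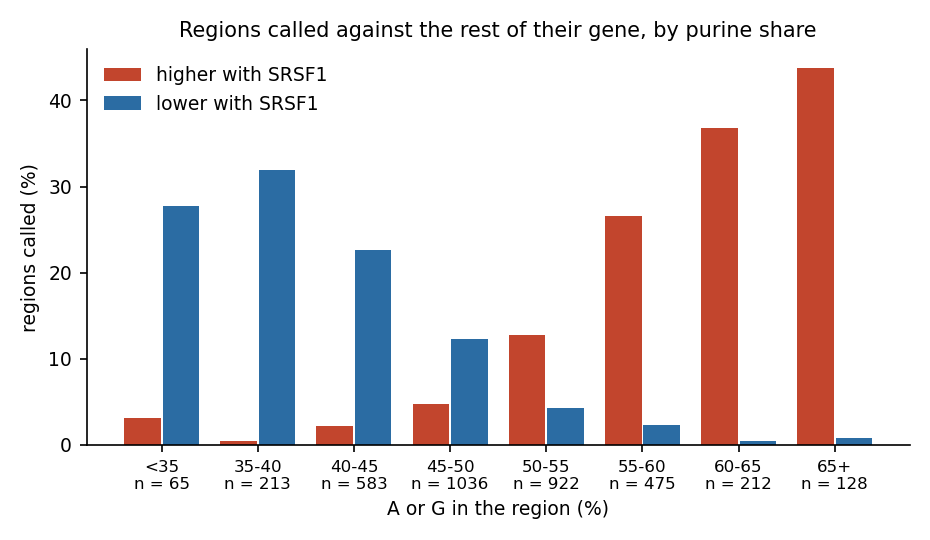
Percent of regions within genes called relatively higher or lower with SRSF1, by the purine share of the region; n is the number of regions in a bin. The share called higher goes up to 43.8% in the last bin, and the share called lower is at most 0.78% in the last 2 bins.

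Among the sites printed above, Adcy1, an adenylyl cyclase gene, had the only relatively higher region whose libraries did not overlap. Its coding region held 61.1, 40.6, 104 and 134 CPM with SRSF1 and 0, 8.83 and 13.3 with SRSF3 (relative log2 change 5.86 ± 0.86, adjusted p = 2.5e-08), with at most 22.2 CPM for any other protein. Further upstream in Adcy1, a region of an intron held 25.6, 0, 0 and 0 CPM with SRSF1, against 347, 216 and 212 with SRSF3. The exon of Deaf1, a transcription factor, held 119, 129.9, 0 and 0 CPM with SRSF1, against 0, 8.83 and 7.18. Ubap2l, an RNA-binding protein gene, held 54.0, 44.7, 0 and 0, against 0, 0 and 1.03. These sites rest on SRSF1 replicate 1 or on replicates 1 and 2: replicates 3 and 4 had 0 tags at 7 of the 8 regions.

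The relatively lower sites were steadier across libraries. The 2 coding regions of Bptf, a chromatin remodeller, held 4.06 CPM in SRSF1 replicate 2 and 0 in the other SRSF1 libraries, against 137, 92.9 and 86.2 and 109.9, 76.2 and 89.8 with SRSF3. Nop2, a nucleolar RNA methyltransferase, held the same 4.06 CPM with SRSF1, against 100.2, 84.5 and 74.9. Upstream in Bptf a coding region went the other way, with 72.5, 109.6, 0 and 0 CPM with SRSF1 and 0, 3.25 and 4.10 with SRSF3 (relative change 3.15 ± 0.86, adjusted p = 0.0031). In a fit of the 7 libraries alone both lower Bptf calls ended (adjusted p = 0.113 and 0.154).

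Supt6h, a histone chaperone of transcription elongation, carried both kinds of site in coding exons. A region 13690 nt from its start held 131, 126, 69.0 and 0 CPM with SRSF1, against 0, 1.39 and 1.03 with SRSF3. A region 37716 nt from its start held 0, 12.2, 0 and 0 CPM with SRSF1, against 56.2, 41.3 and 44.1. Relative to the rest of the gene these changed by 4.68 ± 0.91 and −6.38 ± 0.94 on the log2 scale (adjusted p = 2.8e-05 and 3.2e-08).

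Pkm2, the pyruvate kinase gene known for a pair of mutually exclusive exons, had 13 tested regions. Its first intron region, 151 nt from the start, held 0 CPM in all 4 SRSF1 libraries and 511, 233 and 200 with SRSF3 (adjusted p = 2.1e-08), and another intron 17211 nt from the start held 0 with SRSF1 and 83.1, 68.8 and 44.1 with SRSF3. In between, 4 coding regions were relatively higher with SRSF1. The one 13891 nt from the start held 45.5, 52.8, 46.0 and 0 CPM with SRSF1, against 2.44, 5.57 and 4.62 with SRSF3 (relative change 3.94 ± 0.91, adjusted p = 4.3e-04). The remaining 7 regions did not pass the test.

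**Figure D5:**
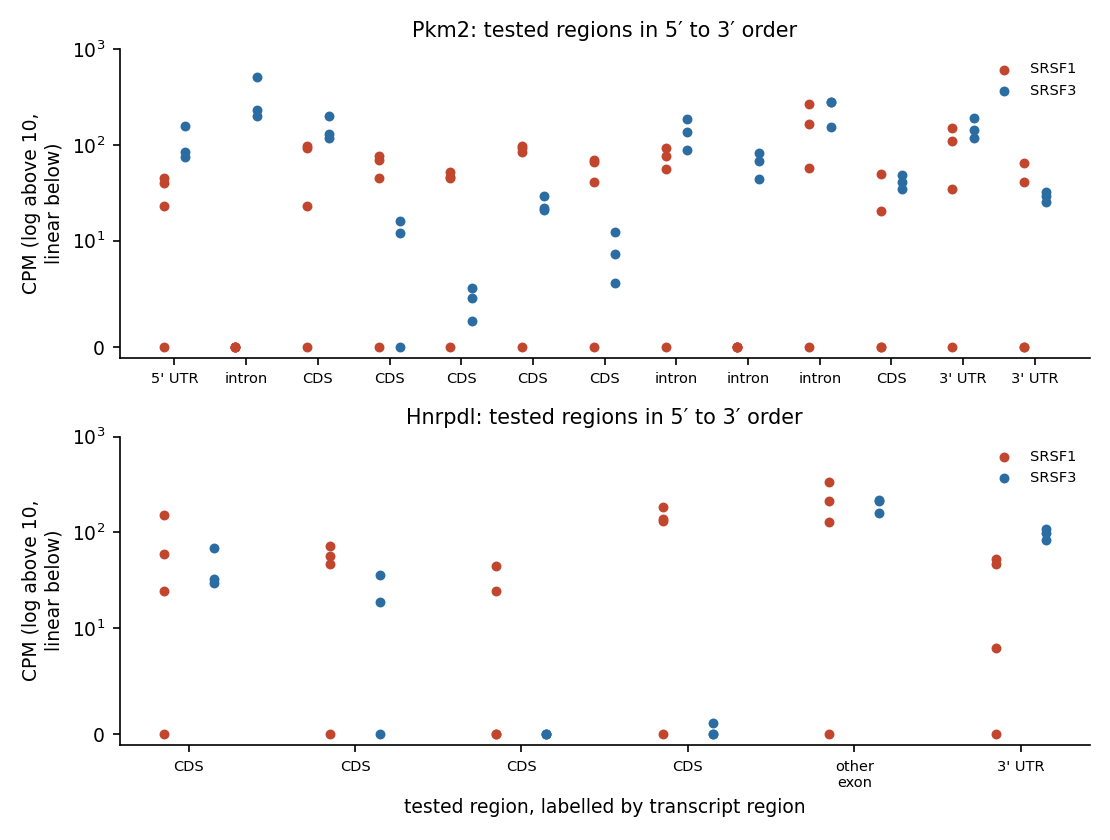
CPM of each tested region of Pkm2 and Hnrpdl in 5′ to 3′ order along the gene (log scale above 10 CPM, linear below), labelled by transcript region, with the 4 SRSF1 and 3 SRSF3 libraries as points. In Pkm2 the first intron region is at 0 with SRSF1 and at 200 to 511 CPM with SRSF3, while a coding region 13891 nt from the start is at 45.5 to 52.8 CPM in SRSF1 replicates 1 to 3.

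In Hnrpdl the split ran along the transcript. The coding region 2993 nt from the start is the SRSF1 site described above, and the coding region before it held 24.2, 44.7, 0 and 0 CPM with SRSF1 and 0 in all SRSF3 libraries. The 3′ UTR region 4590 nt from the start held 52.6, 8.12, 46.0 and 0 CPM with SRSF1, against 108, 82.2 and 97.5 with SRSF3, and was relatively lower (−3.97 ± 1.14, adjusted p = 0.0057). Between these, exons outside the transcript with the longest coding sequence held 336, 211, 127 and 0 CPM with SRSF1 and 159, 211 and 218 with SRSF3 (adjusted p = 0.122).

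Over whole genes, the number called in each direction depended on the scaling. Of 6034 genes tested, 662 were lower with SRSF1 (11%) and 157 higher (2.6%), by limma voom at an adjusted p under 0.05, and the unadjusted p was under 0.05 for 1869. SRSF1 and SRSF3 libraries did not overlap in 58 of the higher and 607 of the lower genes, against 33.1% of all genes tested, and 20 of the higher genes held 0 in every SRSF3 library and 89 of the lower held 0 in every SRSF1 library. The median log2 change of all genes was −1.19 on library totals, −0.92 with trimmed-mean scaling, −0.39 on totals over coding genes and −2.89 with median ratios. The split into higher and lower genes moved with it, to 176 and 311, 453 and 603, and 45 and 2604, so it says little about direction. The calls were 535 without SRSF1 replicate 1, 432 without replicate 2, and 525, 226 and 228 without SRSF3 replicate 1, 2 or 3.

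The kinds of gene differed between the directions. Coding genes were 650 of the 662 lower genes (98.2%) and 92 of the 157 higher ones (58.6%), beside 91.8% of all genes tested. The higher genes also included 20 small nucleolar RNAs, 14 small nuclear RNAs, 11 pseudogenes and 6 ribosomal RNA genes. Of 143 small nucleolar RNA genes tested 20 were higher and 1 lower, beside 2.6% higher and 11% lower of all genes. Of 22 mitochondrial genes tested 7 were lower with SRSF1 and 2 higher. The 7 lower ones were all the protein genes tested, and the 2 higher ones were transfer RNA genes. Mitochondrial tags were 0.69%, 1.03%, 1.11% and 0.11% of the total with SRSF1, against 3.13%, 2.11% and 2.32%. Small RNA genes have near-identical copies, among which cDNAs may have been split.

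The transcript of each tagged protein was read on its own, because the cells carry extra copies of the tagged gene and of neighbours on the artificial chromosome. Srsf1 held 3540.1, 2907, 2611 and 134 CPM with SRSF1 and 513, 552 and 541 with SRSF3 (log2 change 1.51 ± 1.42, limma adjusted p = 0.46). Replicates 1 to 3 lay above SRSF3 and replicate 4, with 2 tags, below it. Srsf3 held 175, 89.3, 0 and 0 CPM with SRSF1 and 3797, 3169 and 3076 with SRSF3, lower without overlap (−6.38 ± 1.32, adjusted p = 0.0021). Of the 12 neighbours of Srsf3 within 100000 nt 2 could be tested and neither passed, and of the 7 of Srsf1 2 could be tested and Vezf1 was lower. Copies of the gene, its expression and its binding cannot be told apart.

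Within these transcripts the tags lay at particular exons. On Srsf3, the SRSF3 libraries had 1398 of 1554, 6203 of 6823 and 5207 of 5996 tags in exons outside the transcript with the longest coding sequence. This class holds exons of all other transcripts of the gene, with or without an open frame. The largest such region held 45.5, 36.5, 0 and 0 CPM with SRSF1, against 2949, 2435 and 2181. By contrast the 5′ UTR of Srsf3 held 48.3, 16.2, 0 and 0 CPM with SRSF1 and 2.44, 0 and 0 with SRSF3, relatively higher by 11.04 ± 1.61 (adjusted p = 4.0e-08). On Srsf1, a region 3579 nt from the start in the same class of exon held 970, 828, 886 and 0 CPM with SRSF1 and 0, 52.5 and 48.7 with SRSF3 (relative change 5.37 ± 1.55, adjusted p = 0.0063).

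The noncoding RNAs of the imprinted Meg3 domain (chromosome 12, 110779211 to 110987665) were listed with SRSF1 and not with SRSF3. Meg3 held 1092, 1308, 839.8 and 0 CPM with SRSF1, Rian 634, 357, 334 and 0, and Mirg 226, 179, 69.0 and 0, and all 3 held 0 in every SRSF3 library (adjusted p = 0.0034, 0.0026 and 0.001). The small nucleolar RNAs SNORD113 and AF357341 of this domain held 617, 1409, 1944 and 0 CPM and 61.1, 60.9, 149.6 and 0 CPM with SRSF1, and again 0 with SRSF3. SRSF1 replicate 4 was at 0 throughout, so the groups overlapped in every one. The calls of AF357341 and Mirg did not hold with the same offset in CPM (adjusted p = 0.0616 and 0.0543). SRSF6 libraries held at most 0.94 CPM on Meg3 and SRSF7 libraries up to 1584, so the RNA was listed in some lines and hardly in others.

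Few coding genes were clearly higher with SRSF1. Taf1c, a subunit of the RNA polymerase I factor, held 233, 1117, 5165 and 7248 CPM with SRSF1 and 4.89, 20.4 and 12.3 with SRSF3 (7.22 ± 1.02, adjusted p = 5.8e-05), with 137 CPM in the control. Counted by positions in place of tags its call ended (adjusted p = 0.157). Atg4c, an autophagy protease, held 22.7, 126, 253 and 403 CPM, against 0, 1.39 and 4.10. Chi3l7 held 92.4, 365, 839.8 and 1946 CPM, against 0, 2.32 and 0, with 137 CPM in the control. In all 3 the CPM was larger in the libraries with fewer tags. Coro2b (229, 369.5, 529 and 201 CPM, against 34.2, 7.43 and 10.3) and the small nucleolar RNA Snora16a (513, 678, 1069.9 and 537, against 0, 4.65 and 22.1) were even across the 4 libraries. Nearly all SRSF1 tags on Coro2b lay in the intron region named above, which is 12 nt wide (226, 361, 529 and 201 CPM). Copies of that sequence elsewhere in the genome were not searched for, so its tags may belong to other sites. SRSF5 libraries held 269 to 660 CPM on Coro2b, so the gene was not limited to SRSF1.

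Some of the coding genes that were lower with SRSF1 had similar values in all 3 SRSF3 libraries. Adam12, a membrane metalloproteinase, held 0 in all SRSF1 libraries and 1312, 1369 and 1380.02 CPM with SRSF3 (adjusted p = 7.1e-07). Strc, the stereocilin gene of the inner ear, held 0, 8.12, 0 and 0 CPM with SRSF1, against 3531, 2705 and 3067 with SRSF3. It was also listed with other proteins, with up to 1818 CPM. Utf1, a transcription factor of pluripotent cells, held 0, 12.2, 0 and 0 CPM with SRSF1 and 239, 219 and 212 with SRSF3. Ets1, a transcription factor, was less even, with 0 in all SRSF1 libraries and 393, 145 and 106 CPM with SRSF3. The mitochondrial subunits mt-Nd5 and mt-Nd4 of respiratory complex I held at most 25.6 and 28.4 CPM with SRSF1, against 2329 to 2802 and 922 to 1049 CPM.

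Lists of genes for RNA processing showed few calls. Over all genes tested 2.6% were higher with SRSF1 and 11% lower, and the counts of the lists are read against these shares. None of 23 core spliceosome genes, 11 speckle scaffold genes, 11 export genes, 22 ribosomal protein genes and 6 SR kinase genes passed the test in either direction, with medians of −0.88, −1.04, −1.40, −0.92 and −0.85 beside −1.19 for all genes. Of 12 SR protein genes only Srsf3 passed, and the median was −1.09. Of 24 hnRNP genes, which coat nascent RNA, 2 were lower, namely Ptbp1, the pyrimidine tract binding protein (141, 60.9, 0 and 0 CPM, against 665, 643 and 561), and Pcbp2, a poly(C)-binding protein (186, 162, 34.5 and 0, against 911, 642 and 641). Their log2 changes were −4.12 and −3.04 (adjusted p = 0.03 and 0.012), which is −2.94 and −1.85 from the median of all genes, a distance that was not itself tested. The call of Ptbp1 ended with trimmed-mean scaling (adjusted p = 0.126), without SRSF1 replicate 2 or 3 (0.0664 and 0.161) and without SRSF3 replicate 1, 2 or 3 (0.0674, 0.0958 and 0.0841), and that of Pcbp2 without SRSF1 replicate 3 (0.057) or SRSF3 replicate 2 or 3 (0.0519 and 0.053).

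Among 12 exon junction and decay genes 1 was higher and 2 were lower, beside 2.6% and 11% of all genes. Rbm8a, a core member of the exon junction complex, held 166, 109.6, 34.5 and 0 CPM with SRSF1, against 0, 11.1 and 11.8 (3.61 ± 0.99, adjusted p = 0.015). Eif4a3, the helicase of the same complex, held 31.3, 4.06, 0 and 0 CPM, against 139, 108 and 106 (−3.15 ± 1.05, adjusted p = 0.041), and the decay kinase gene Smg1 273, 69.0, 0 and 0, against 242, 474 and 463 (adjusted p = 0.049). The 3 calls ended when any one SRSF3 library was left out (adjusted p = 0.0549 to 0.156), and those of Eif4a3 and Smg1 also with trimmed-mean scaling (0.145 and 0.151). Without SRSF1 replicate 2 or 3 the adjusted p was 0.176 and 0.0681 for Eif4a3 and 0.0858 and 0.304 for Smg1, and without SRSF1 replicate 4 it was 0.0501 for Eif4a3.

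The other lists had 1 called gene each, all lower with SRSF1, beside 11% lower of all genes. They were Cstf1 of 14 genes for 3′ ends (14.2, 0, 0 and 0 CPM with SRSF1, against 53.8, 134 and 95.4), Eif4g2 of 17 translation factors, Hist2h4 of 13 histone genes, Vim of 10 cytoskeleton genes, Hdac1 of 15 chromatin genes and Utf1 of 5 pluripotency genes. Their medians were −1.49, −0.70, −0.64, −1.89, −0.97 and −1.09. Eif4g2 had the largest level, with 1102, 678, 2013 and 0 CPM with SRSF1 and 8456, 2519 and 2424 with SRSF3. The calls of Cstf1, Eif4g2, Vim and Hdac1 ended without SRSF3 replicate 2 or 3 (adjusted p = 0.0663 to 0.138). They also ended without SRSF1 replicate 2 for Cstf1 (0.123), without SRSF1 replicate 4 (0.129) or SRSF3 replicate 1 (0.11) for Eif4g2, and without SRSF3 replicate 1 for Vim and Hdac1 (0.077 and 0.0715). Without SRSF1 replicate 2, 3 or 4 Vim had an adjusted p of 0.187, 0.0522 and 0.051, and without SRSF1 replicate 1, 2 or 3 Hdac1 had 0.0618, 0.249 and 0.0583. Those of Hist2h4 and Utf1 held without any one library. The long noncoding list of 10 had 3 higher genes, all of the Meg3 domain, and a median of 0.47.

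Strong sites were shared more within a protein than between them. The 2000 positions with most tags of each library were compared with the same set of another library. Within SRSF1, a median of 73.5% (32.4% to 90.7% over 12 ordered pairs) lay within 15 nt of a position in the other set. For SRSF1 positions against the sets of SRSF3 libraries it was 57.2% (14.3% to 64.6%). For SRSF3 it was 80.1% (74.3% to 87.3%) within the protein and 49.5% (17.3% to 61.2%) in SRSF1 libraries. Listed positions outside these sets were not counted as matches. The low ends of the pairs with an SRSF1 library belong to SRSF1 replicate 4, whose set reaches down to positions with 2 tags. These shares were not tested.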

How the data were processed

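iCLIP libraries of GFP-tagged SRSF1 (4) and SRSF3 (3) were compared, with 24 libraries of other proteins and a pooled control as background. Per the paper's methods and the deposited file headers, the authors called bases with CASAVA 1.4 (from the submitters' processing notes), mapped reads to mouse mm9 and kept positions with FDR below 0.05 against 100 permutations within 15 nt. The aligner settings for repeated sequence are not given in the sources used here. The deposited value is another kind of number than a plain count table: the cDNA count of a position, signed by strand, so tags are its absolute value, library by library. Totals are thus listed tags, not depth, and a value of 0 is no listed position.

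Genes and exons came from the reference annotation of the same build (NCBIM37), and strand-specific tags were summed over 37310 genes and over 388969 regions (deposited clusters merged within 30 nt, median width 16 nt). Features needed 42.1 CPM (10 tags in the median library of 237488) in 3 libraries and 15 tags in all. They were fitted over all 31 libraries with limma 3.58.1 (voom with 0.5 tag added, trend for pentamers, diffSplice for regions within genes; R 4.3.3), on library totals, with adjusted p (Benjamini-Hochberg) under 0.05. Library measures were compared by two-sided exact permutation of 4 against 3 libraries. The steps used Python 3.11.15, numpy 2.4.6, pandas 2.3.3 and samtools 1.23.1, and the fits were tested on simulated data, where changes towards lower values were recovered less often than changes towards higher ones. The fixed design named count models as alternatives. They were not run, because the deposited values were classed as other than plain counts. The sign gives only the strand and does not by itself prevent such models.

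The named items were the 10 called genes of smallest p in each direction, Srsf1, Srsf3 and called members of the lists (SR proteins, SR kinases, hnRNPs, speckle scaffold, core spliceosome, export, 3′ ends, exon junction and decay, ribosomal proteins, translation factors, histones, long noncoding, cytoskeleton, chromatin and pluripotency), the 8 called regions of smallest p in each direction, and the 10 called pentamers of largest difference. One named gene is not reported here. Members, lists and tests were chosen with earlier results of these data known. Regions along named genes were chosen after their values were seen.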

Additional observations from a re-analysis of the deposited data

Results flagged for a closer look

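In the 4 SRSF1 libraries, 25 of 101 sets of values held a library far from the other 3. In these, Dixon's ratio of the gap to the range was above its 95% critical value for 4. Chance gives this in about 1 of 20 sets of normal values. Where 3 libraries are at 0 and 1 is not, the ratio is 1 whatever the value, so that rate does not apply to such sets. The values of one library recur across sets, so the flags are not independent. SRSF1 replicate 4 was the far library for the purine share (55.55% against 52.5% to 52.98%, ratio 0.8453), for GGA density (3.569 against 2.771 to 2.86 per 100 nt, ratio 0.8887) and for the share of last exons (15.47% against 20.83% to 21.63%, ratio 0.8691). It was also the lowest for the pentamers TCCTC (ratio 0.8838), CCATC (ratio 0.8939) and CTCCT (ratio 0.8719), and the lowest at the Dst coding region, with 0 against 46.02 to 52.6 CPM (ratio 0.8748).

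In the other sets 1 SRSF1 library had tags where the others had none or few. The ratio was 1, with 3 libraries at 0, for the genes Utf1, Strc, mt-Nd5, Slc9a7, Hist2h4, Cstf1 and Vim, for the Polr2a coding and Tsga14 intron regions, and within genes for Rbbp6, both Bptf regions, Supt6h and Nop2. SRSF1 replicate 1 stood above the rest for Eif4a3 (31.28 CPM, next 4.061, ratio 0.8702), the Mga region (36.97 CPM, next 4.061, ratio 0.8902) and the Dst 3′ UTR region (49.76 CPM, next 8.121, ratio 0.8368).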

How the results depend on the processing

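The purine share (17 alternatives), the densities of GGA, GAAGA and CNTC (36) and 107 of 110 values of transcript region shares kept their direction. The exceptions came with the 2000 positions with most tags: noncoding exons −10.9, introns 8.42 and internal exons −17.1 points. Pentamer ATCGT turned to 0.32 over coding sequence. Their cause was not tested. Counts of calls moved most. Genes (819) numbered 487 with TMM, 2649 with median ratios, 349 without the filter, 376 with limma trend, 76 thinned to 10000 tags and 226 to 800 leaving out 1 library. Regions (2642) numbered 4920 without the filter, 1530 in the 7 libraries alone, 166 thinned, 1545 with the same offset and 1582 to 2524 leaving out 1 library, and regions within genes (840) numbered 1592, 256, 396 (same offset) and 472 to 873. Pentamers (461) numbered 202 in coding sequence and 338 to 494 leaving out 1 library. The higher and lower split of regions moved to 626 and 1537 with TMM scaling, and 100-nt bins in place of merged regions split into 1533 and 815. Counted by positions, genes split into 461 and 587, and with the same offset into 62 and 774. Of the named values, 554 of 648 for genes, 207 of 208 for regions, 159 of 165 within genes and 259 of 280 for pentamers kept direction and side of the threshold. Without the 2 SRSF2 libraries whose headers name SRSF1, an alternative chosen after seeing the data, the counts were 849, 2607, 800 and 461.

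Replicate numbers 1 to 3 occur in both proteins, but the labels do not pair them, and deviations of same-numbered libraries correlated at −0.28, 0.04 and −0.26. With the replicate block the purine difference was 9.91 points, GGA 1.56, CNTC −1.74 and GAAGA 0.24 per 100 nt, and the calls numbered 695 genes, 2619 regions, 776 within genes and 437 pentamers. edgeR and DESeq2 were not used, since the deposited values are thresholded and were classed as other than plain counts. Depth limits low values: SRSF1 replicate 4 has 14900 tags, and positions below the authors' threshold are not listed.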
